A study of Homo sapiens with 8 samples.

Results

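The transcripts of 10 genes of the G1 machinery were followed in ABC1 and HCC4006 cells by RNA-seq. These genes were 4 cyclins (*CCND1*, *CCND2*, *CCND3* and *CCNE1*), 2 cyclin-dependent kinases (*CDK4* and *CDK6*) and 4 inhibitors of these kinases (*CDKN1A*, *CDKN1B*, *CDKN1C* and *CDKN2C*), out of 57815 gene identifiers listed in each library. They were taken by symbol, and each symbol matched 1 identifier. ABC1 and HCC4006 are established human lung adenocarcinoma lines that, per the labels, carry no mutation of *KEAP1* or *NRF2*. Cells of both lines were grown in DMEM with serum and received 100 μM DEM or its vehicle DMSO for 16 h. DEM, an electrophile that inhibits KEAP1, is diethylmaleate in the study's methods and dimethylmaleate in the title of the deposited series. Each of the 4 groups held 2 libraries, numbered 0 and 1 in the labels, described as biological duplicates in the study's methods.

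The 10 genes were selected on earlier results of these same libraries, in which their levels and their responses to DEM were known. Their levels and their differences are therefore given below as a description, without a test of their own. A gene was "called" where limma on log2(FPKM + 1), fitted across all genes that averaged 1 FPKM or more, gave a Benjamini-Hochberg adjusted p under 0.05. FPKM counts fragments relative to transcript length and to the number of mapped fragments, so levels of different genes can be set side by side, but only roughly. A log2 fold change below is always a difference of log2(FPKM + 1), which understates the change of genes with few FPKM.

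D-type cyclins bind CDK4 or CDK6 when growth signals arrive, and the resulting kinases begin to phosphorylate the retinoblastoma protein. Cyclin E then activates CDK2, the retinoblastoma protein releases E2F factors, and the genes of DNA replication are transcribed. CDKN1A (p21), CDKN1B (p27) and CDKN1C (p57) form the CIP/KIP family, which blocks CDK2 complexes and also binds those of CDK4 and CDK6. CDKN2C (p18) belongs to the INK4 family, which binds only CDK4 and CDK6. *CDKN1A* is known as a target of several stress-responsive factors.

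The libraries were similar in total and between replicates. Their summed FPKM differed by a factor of at most 1.18, and replicates correlated across genes with a Pearson's r of 0.992 to 0.995 on the log2(FPKM + 1) scale. Replicates differed more in ABC1, with a median absolute log2 difference of 0.173 between its vehicle libraries, than in HCC4006, where it was 0.115. As a check of the treatment, the 6 NRF2 target genes *NQO1*, *GCLM*, *TXNRD1*, *SRXN1*, *SLC7A11* and *HMOX1* were all called higher with DEM in both lines. The epithelial genes *EPCAM*, *CDH1*, *KRT8*, *KRT18* and *KRT19* were above 90 FPKM in all 8 libraries. *KRT7*, also epithelial, had 10.4 to 25.9 FPKM in ABC1 and 1459.5 to 2106 FPKM in HCC4006. The lung markers *NKX2-1* and *NAPSA* were below 1 FPKM in ABC1 and between 12.9 and 47.1 FPKM in HCC4006, and *SFTPB* was near 0 in both. The leukocyte markers *PTPRC* and *CD3E* and the endothelial markers *VWF* and *CDH5* stayed below 0.2 FPKM, while the third leukocyte gene, *CD68*, was listed at 89.3 to 102 FPKM in HCC4006 and at most 2.54 FPKM in ABC1. The authors' base means of *CD68*, means of scaled counts over the libraries of a line, were only 5.56 and 0.240, few counts for such an FPKM. Of the fibroblast markers *COL1A1* had 3.58 to 7.64 FPKM, *COL1A2* at most 1.48 FPKM and *PDGFRB* at most 0.0575 FPKM. *KRT7*, *KRT8* and *KRT18* were called lower with DEM in HCC4006, by 0.51, 0.46 and 0.40 on the log2 scale. In ABC1 their log2 fold changes were -1.02, -0.54 and -0.65 and were not called. The median over the epithelial and lung markers tested was -0.45 in ABC1 and -0.16 in HCC4006, and their part in the results below was not tested.

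Promoter windows of the 3 members with the clearest responses are printed first, since *CCND3* and *CDKN1A* were both higher with DEM in ABC1 and *CDK4* was lower with DEM in both lines. RefSeq on GRCh38.p14 gave starts for 7 of the members, 12 starts in all, of which 3 belonged to *CCND3*. The innermost of these, with 0 GC boxes and 1 CCAAT, is not printed. Each line below holds the 250 bases before a start, 5′ to 3′ on the gene's strand. Capitals mark every match, on either strand, to GGGCGG (the GC box bound by SP1), CACGTG (the E-box bound by MYC), CCAAT or TGACNNNGC (the core of the antioxidant response element bound by NRF2).
CCND3, outer start, chr6:42048689-42048938, minus strand: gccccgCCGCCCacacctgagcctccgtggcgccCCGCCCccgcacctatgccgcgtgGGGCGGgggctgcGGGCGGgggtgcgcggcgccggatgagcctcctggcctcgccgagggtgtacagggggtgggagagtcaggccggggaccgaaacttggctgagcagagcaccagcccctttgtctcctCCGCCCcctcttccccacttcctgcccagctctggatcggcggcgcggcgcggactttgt
CCND3, middle start, chr6:41941809-41942058, minus strand: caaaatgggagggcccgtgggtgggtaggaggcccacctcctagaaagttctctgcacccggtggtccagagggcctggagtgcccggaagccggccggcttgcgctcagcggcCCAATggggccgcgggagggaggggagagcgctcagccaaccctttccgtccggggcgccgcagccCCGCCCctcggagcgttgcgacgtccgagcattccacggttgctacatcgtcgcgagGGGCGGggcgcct
CDKN1A, chr6:36678464-36678713, plus strand: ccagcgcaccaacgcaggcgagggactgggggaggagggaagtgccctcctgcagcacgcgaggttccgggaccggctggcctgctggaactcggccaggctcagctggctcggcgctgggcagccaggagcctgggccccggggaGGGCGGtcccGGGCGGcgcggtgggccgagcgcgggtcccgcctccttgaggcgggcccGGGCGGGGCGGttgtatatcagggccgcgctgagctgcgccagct
CDK4, chr12:57752311-57752560, minus strand: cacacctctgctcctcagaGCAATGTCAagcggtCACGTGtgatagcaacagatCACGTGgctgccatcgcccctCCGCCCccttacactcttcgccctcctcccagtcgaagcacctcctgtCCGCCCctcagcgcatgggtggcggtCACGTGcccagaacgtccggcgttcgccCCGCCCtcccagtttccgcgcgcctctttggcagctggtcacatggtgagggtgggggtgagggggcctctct

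The outer *CCND3* window held 5 GC boxes and the middle one held 2 GC boxes and 1 CCAAT. The *CDKN1A* window held 4 GC boxes, at 104, 94, 45 and 40 bases before the start, the last pair sharing 1 base. The *CDK4* window was the richest in E-boxes, with 3 copies at 216, 196 and 101 bases before the start, besides 3 GC boxes and 1 match to the core of the antioxidant response element. Over the 35116 windows of the same length in the RefSeq table, 42.6% held a GC box, 6.34% an E-box, 32.0% a CCAAT and 10.9% the core of the antioxidant response element. GC boxes were found in 9 of the 12 member windows and the core of the antioxidant response element in 3 (those of *CCNE1*, *CDK4* and *CDKN1B*). Matches to TGANTCA (AP-1), TGACGTCA (CRE), TGATGNAA (the element bound by ATF4 with C/EBP factors), TATAAA, TTTCCCGC and TTTGGCGC (E2F) were found in 0 of the 12 windows, against 6.57%, 1.65%, 3.14%, 10.7%, 1.39% and 0.55% of all windows in this order. These are matches of letters in short windows and no evidence of binding, and FPKM summed over a gene does not tell which start was used.

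Among the D-type cyclins, *CCND3* had the widest difference between DEM and vehicle, and that was in ABC1, where it was higher with DEM. *CCND3* (hg19 chr6:41902672-42018095, minus strand) encodes cyclin D3. Its levels in ABC1 were 109 and 159 FPKM with vehicle and 304 and 404 FPKM with DEM, a ratio of means of 2.64. In HCC4006 they were 22.3 and 18.7 FPKM with vehicle and 18.1 and 14.9 FPKM with DEM. Both DEM libraries thus lay above both vehicle libraries in ABC1 and below them in HCC4006. The log2 fold change was 1.40 in ABC1 (standard error 0.23, 95% CI 0.83 to 1.98) and -0.30 in HCC4006 (standard error 0.13, 95% CI -0.62 to 0.03). *CCND3* was not called in either line, and the ABC1 value ran from 1.14 without vehicle replicate 0 to 1.67 without vehicle replicate 1. With scaling of the libraries by the median of ratios, quantile normalization, no minimum, a minimum of 5 FPKM or the fit of all 8 libraries, it was called in ABC1 at nearly the same log2 fold change. A term for the replicate number, which the labels do not tie to a batch, gave that call too. *RNU6-761P*, a small RNA pseudogene inside *CCND3* on the same strand, had between 0 and 24.7 FPKM.

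*CCND1*, which encodes cyclin D1 (hg19 chr11:69455924-69469242, plus strand), was the most abundant D-type cyclin of HCC4006. Its levels there were 445 and 400 FPKM with vehicle and 416 and 374 FPKM with DEM. In ABC1 they were 156 and 188 FPKM with vehicle and 163 and 243 FPKM with DEM. The vehicle and DEM libraries overlapped in both lines. On the log2 scale DEM differed from vehicle by 0.22 in ABC1 (standard error 0.22) and -0.10 in HCC4006 (standard error 0.08), and the ABC1 value turned to -0.07 without DEM replicate 1 of that line. *LTO1*, between 8.02 and 27.5 FPKM, overlaps the end of *CCND1* on the opposite strand. The library kit kept the strand, but the strand setting of the counting was not given in the sources used here.

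*CCND2*, the gene of cyclin D2 (hg19 chr12:4378937-4414519, plus strand), was nearly silent. It had 0.618 and 0.929 FPKM with vehicle and 0.287 and 0.638 FPKM with DEM in ABC1. In HCC4006 it had 0.0104 FPKM in both vehicle libraries and was listed at 0 in both DEM libraries. The base mean of *CCND2* was 55.6 in ABC1 and 0.494 in HCC4006. It was under the minimum of 1 FPKM and was not tested.

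The make-up of the D-type cyclins differed in ABC1 between vehicle and DEM. *CCND3* made up 41.1% and 45.7% of the summed FPKM of the 3 genes in the vehicle libraries of ABC1 and 65.0% and 62.4% in its DEM libraries. In HCC4006 it made up 4.78% and 4.47% with vehicle and 4.18% and 3.84% with DEM. Such a share is formed within a library and does not depend on how libraries are scaled. The summed FPKM of the 3 genes in ABC1 was 266 and 347 with vehicle and 468 and 647 with DEM, and in HCC4006 it was 467 and 418 with vehicle and 434 and 389 with DEM. The ranges did not overlap in ABC1 and overlapped in HCC4006.

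*CCNE1*, the gene of cyclin E1 (hg19 chr19:30302898-30315219, plus strand), was lower with DEM in all libraries of both lines by a small margin. Its levels were 4.58 and 4.04 FPKM with vehicle and 2.66 and 3.94 FPKM with DEM in ABC1. In HCC4006 they were 15.9 and 14.7 FPKM with vehicle and 13.4 and 13.6 FPKM with DEM. The log2 fold changes, -0.32 in ABC1 (standard error 0.21) and -0.17 in HCC4006 (standard error 0.09), had 95% intervals that included 0, and neither was called. The base mean of *CCNE1* in ABC1 was 79.6, for which counting alone gives a standard deviation of about 11.2% per library. Its paralog *CCNE2*, which is not a member, showed a larger difference and is described with the other G1 genes below.

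**Figure D1:**
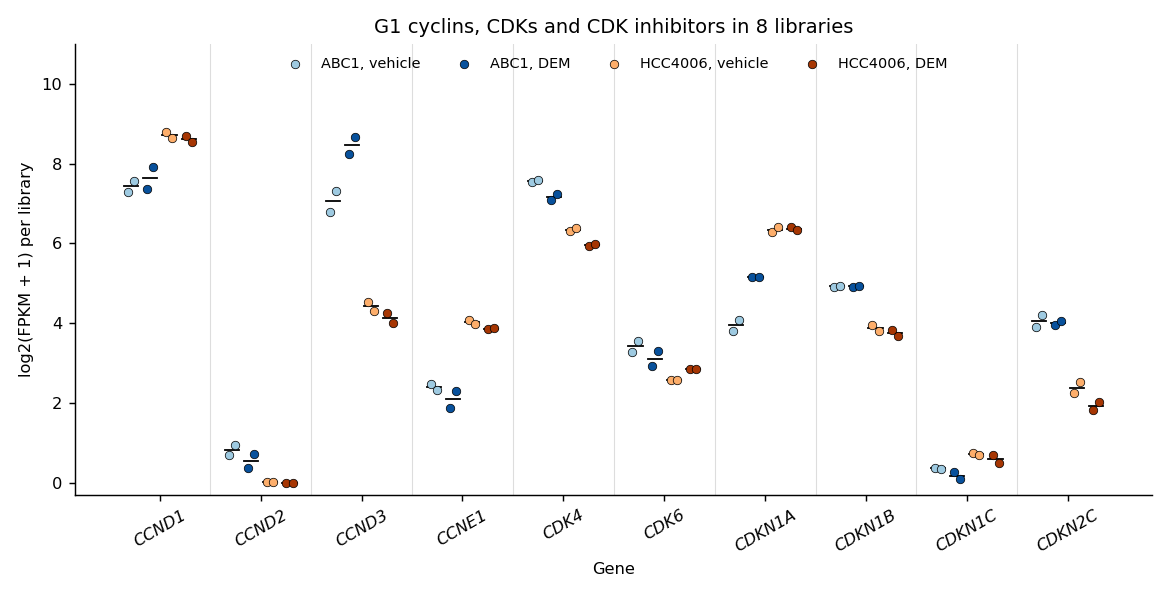
Levels of the 10 members in each of the 8 libraries as log2(FPKM + 1), with 1 point per library and a line at the mean of each group of 2. The DEM points of *CCND3* and *CDKN1A* lie above the vehicle points in ABC1, those of *CDK4* lie below in both lines, and *CCND2* and *CDKN1C* lie near 0.

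Of the kinases, *CDK4* was lower with DEM by a similar factor in both lines. *CDK4* (hg19 chr12:58141510-58149796, minus strand) had 184 and 190 FPKM with vehicle and 135 and 149 FPKM with DEM in ABC1. In HCC4006 it had 78.8 and 82.2 FPKM with vehicle and 60.6 and 62.6 FPKM with DEM. No DEM library reached a vehicle library of its line, and the ratio of DEM to vehicle means was 0.761 in ABC1 and 0.765 in HCC4006. The log2 fold change was -0.39 in ABC1 (standard error 0.13, 95% CI -0.71 to -0.08) and -0.38 in HCC4006 (standard error 0.07, 95% CI -0.55 to -0.21). *CDK4* was called lower in HCC4006 and was not called in ABC1. The difference between these log2 fold changes was 0.01 (standard error 0.13, 95% CI -0.28 to 0.31). The call in HCC4006 was lost when any of the 4 libraries was left out, with log2 fold changes from -0.41 to -0.35, and also without a minimum and without the mean-variance trend. *TSPAN31* and *MARCHF9*, between 8.48 and 24.2 FPKM, overlap the ends of *CDK4* on the opposite strand. The base mean of *CDK4* in ABC1 was 1484, against 7396 for *CCND1* and 6122 for *CCND3*. Base means pool vehicle and DEM libraries and are not relative to transcript length, so they were not used to rank genes.

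*CDK6* (hg19 chr7:92234235-92465887, minus strand), the alternative partner of the D-type cyclins, leaned in opposite directions in the lines. It had 8.76 and 10.8 FPKM with vehicle and 6.57 and 8.82 FPKM with DEM in ABC1, where the groups overlapped. In HCC4006 it had 4.97 and 4.99 FPKM with vehicle and 6.18 FPKM in both DEM libraries, where they did not. Log2 fold changes were -0.31 in ABC1 (standard error 0.19) and 0.26 in HCC4006 (standard error 0.11), and *CDK6* was not called in either line. *CDK4* supplied most of the summed FPKM of the pair everywhere. Its share was 95.4% and 94.6% with vehicle and 95.4% and 94.4% with DEM in ABC1, and 94.1% and 94.3% with vehicle and 90.7% and 91.0% with DEM in HCC4006. The summed FPKM of both kinases was lower with DEM in each line, at 142 and 158 against 192 and 201 in ABC1 and at 66.8 and 68.8 against 83.8 and 87.1 in HCC4006.

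Of the inhibitors, *CDKN1A* rose with DEM in ABC1 and differed little in HCC4006. *CDKN1A* (hg19 chr6:36644237-36655114, plus strand) had 13.1 and 15.9 FPKM with vehicle and 34.8 FPKM in both DEM libraries of ABC1, a ratio of means of 2.40. In HCC4006 it had 76.4 and 84.2 FPKM with vehicle and 83.7 and 80.0 FPKM with DEM. The groups did not overlap in ABC1 and overlapped in HCC4006, and the level with DEM in ABC1 stayed below that of every HCC4006 library. The log2 fold change was 1.22 in ABC1 (standard error 0.14, 95% CI 0.87 to 1.56), which was called, and 0.03 in HCC4006 (standard error 0.08, 95% CI -0.16 to 0.22), which was not. Leaving out any of the 4 ABC1 libraries ended the call, with log2 fold changes from 1.09 to 1.35, as did a fit without the mean-variance trend. The base mean of *CDKN1A*, pooled over vehicle and DEM libraries, was 733 in ABC1 and 2436 in HCC4006. At these pooled means counting error is about 3.69% and 2.03%. In ABC1, where the groups differed, 3.69% is too low for the vehicle libraries and too high for the DEM libraries.

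*CDKN1B* (hg19 chr12:12838432-12875303, plus strand) encodes p27, which is controlled largely through the stability of its protein. Its levels in ABC1 were the steadiest of the members, at 29.2 and 29.6 FPKM with vehicle and again at 29.2 and 29.6 FPKM with DEM. In HCC4006 they were 14.5 and 12.97 FPKM with vehicle and 13.3 and 11.8 FPKM with DEM. This gave a log2 fold change of 0.00 in ABC1 (standard error 0.12, 95% CI -0.29 to 0.29) and -0.12 in HCC4006 (standard error 0.11, 95% CI -0.39 to 0.15). *GPR19*, which overlaps it on the opposite strand, had at most 1.09 FPKM. *CDKN1C* (hg19 chr11:2904443-2907005, minus strand), an imprinted gene that encodes p57, was under 0.7 FPKM in all libraries. It had 0.295 and 0.272 FPKM with vehicle and 0.201 and 0.0658 FPKM with DEM in ABC1, and 0.676 and 0.611 against 0.630 and 0.413 FPKM in HCC4006. At base means of 4.21 in ABC1 and 13.5 in HCC4006, *CDKN1C* was under the minimum and was not tested. Both DEM libraries lay below both vehicle libraries in ABC1, and the groups overlapped in HCC4006.

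Within the CIP/KIP family *CDKN1A* and *CDKN1B* stood in a different order in ABC1 with vehicle and with DEM. *CDKN1A* made up 30.7% and 34.7% of the family's summed FPKM in the vehicle libraries of ABC1 and 54.2% and 54.0% in its DEM libraries. In HCC4006 it made up 83.4% and 86.1% with vehicle and 85.7% and 86.8% with DEM. The summed FPKM of the family in ABC1 was 42.6 and 45.7 with vehicle and 64.1 and 64.5 with DEM, against 91.6 to 97.8 over the 4 libraries of HCC4006. The level of CIP/KIP transcripts in ABC1 with DEM was thus still below that of HCC4006 with vehicle.

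*CDKN2C*, an INK4 gene (hg19 chr1:51426417-51440306, plus strand), was lower with DEM in HCC4006 and showed no such shift in ABC1. It had 3.76 and 4.71 FPKM with vehicle and 2.53 and 3.07 FPKM with DEM in HCC4006. In ABC1 it had 14.03 and 17.5 FPKM with vehicle and 14.4 and 15.7 FPKM with DEM, where the groups overlapped. Its log2 fold change was -0.46 in HCC4006 (standard error 0.16, 95% CI -0.86 to -0.06) and -0.06 in ABC1 (standard error 0.15, 95% CI -0.44 to 0.32). Neither was called, and the base mean of 104 in HCC4006 leaves a counting error of about 9.80% per library.

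**Figure D2:**
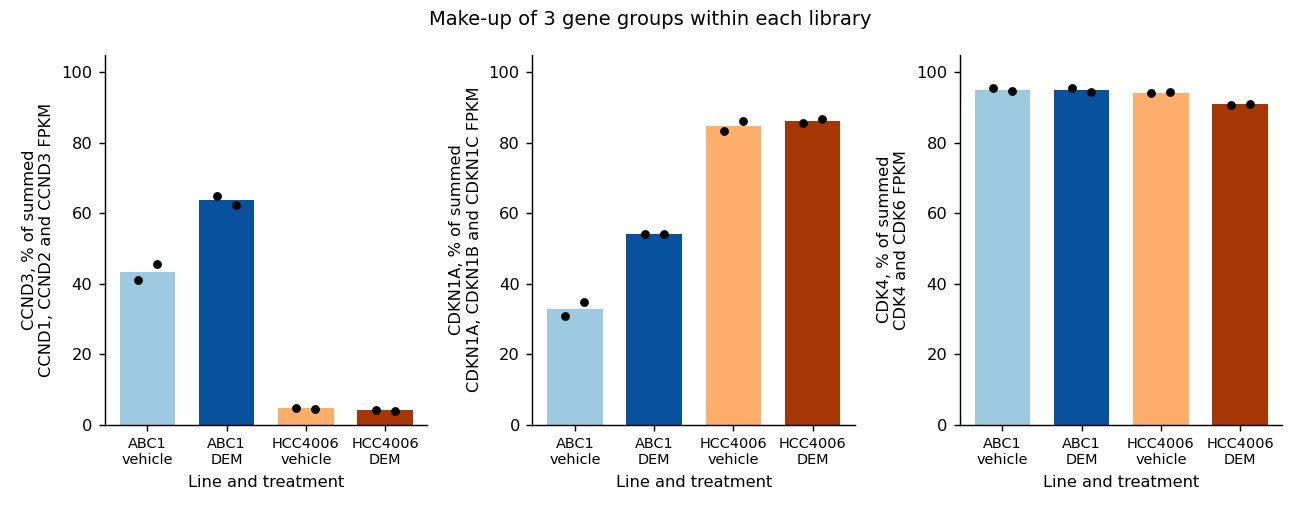
Share of *CCND3* in the summed FPKM of the D-type cyclins, of *CDKN1A* in that of the CIP/KIP family and of *CDK4* in that of *CDK4* and *CDK6*, in percent, with 1 point per library and bars at group means. In ABC1 the means were 43.4% with vehicle and 63.7% with DEM for *CCND3* and 32.7% and 54.1% for *CDKN1A*, while HCC4006 stayed near 4% and 85%.

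Counted over the members, 8 of 10 passed the minimum of 1 FPKM in each line, which kept out *CCND2* and *CDKN1C*. In ABC1, 1 member was called higher (*CDKN1A*) and 0 lower, where 0.768% of the 12635 genes tested were called higher and 0.435% lower. In HCC4006, 0 members were called higher and 1 lower (*CDK4*), where 8.45% of the 13542 genes tested were called higher and 10.7% lower. At an unadjusted p under 0.05 the counts of members were 3 of 8 in ABC1 and 2 of 8 in HCC4006, beside 21.9% and 36.8% of all genes tested. Of the 8 members, the DEM libraries lay wholly above the vehicle libraries for *CCND3* and *CDKN1A* and wholly below for *CCNE1* and *CDK4* in ABC1. Over all genes tested there, 25.5% lay wholly above and 28.2% wholly below. In HCC4006 they lay wholly above for *CDK6* and wholly below for *CCND3*, *CCNE1*, *CDK4* and *CDKN2C*, where 29.3% of all genes tested lay above and 35.3% below. The members were selected on these contrasts, so nothing is read from their counts. The median log2 fold change of the 8 members was -0.03 in ABC1 and -0.14 in HCC4006, beside -0.02 and -0.03 over all genes tested.

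The responses of the lines were also set against each other in a fit of all 8 libraries with a term for the difference. The log2 fold change of *CDKN1A* was lower in HCC4006 than in ABC1 by 1.19 (difference -1.19, standard error 0.16, 95% CI -1.56 to -0.82), and *CDKN1A* was the 1 member called among 8, where 0.636% of the 13682 genes tested were called. That call was lost in 7 of the 8 turns in which a library was left out and was kept without vehicle replicate 1 of ABC1, with differences from -1.32 to -1.06. It was also lost with a pseudocount of 0.1, without a minimum and with a term for the replicate number. Since the members were selected on these responses, this too is a description. The difference of *CCND3* was larger and less precise, at -1.70 (standard error 0.30, 95% CI -2.405 to -0.995), and was not called. It was called with scaling by the median of ratios, with quantile normalization and with a term for the replicate number. The difference of *CDK6* was 0.58 (standard error 0.22), and those of *CCND1*, *CCNE1*, *CDKN1B* and *CDKN2C* lay between -0.40 and 0.15 with intervals that included 0.

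**Figure D3:**
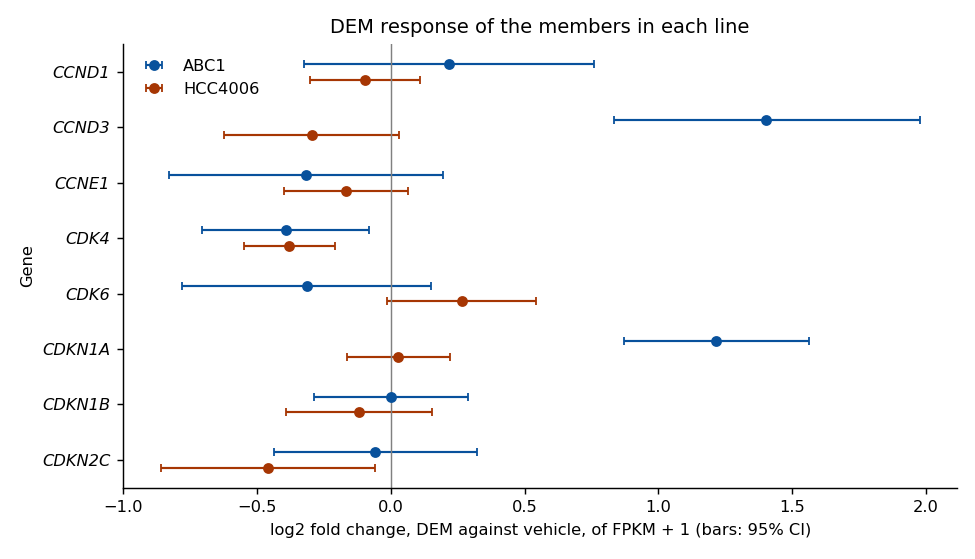
log2 fold change of FPKM + 1 with DEM against vehicle for the 8 members tested, with 95% confidence intervals, in ABC1 and HCC4006. *CCND3* and *CDKN1A* stand apart in ABC1 at 1.40 and 1.22, and the points of *CDK4* coincide at -0.39 and -0.38.

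For each of the 8 members tested, the vehicle groups of the lines differed more on the log2 scale than DEM and vehicle did in either line. In ABC1 with vehicle the order of mean levels was *CDK4* (187 FPKM), *CCND1* (172), *CCND3* (134), *CDKN1B* (29.4), *CDKN2C* (15.8), *CDKN1A* (14.5), *CDK6* (9.78), *CCNE1* (4.31), *CCND2* (0.774) and *CDKN1C* (0.283). The ranges of *CDK4* and *CCND1*, of *CCND1* and *CCND3*, and of *CDKN2C* and *CDKN1A* overlapped across the vehicle libraries. Within each vehicle library these neighbours nevertheless kept the same order. The ratio of *CCND1* to *CDK4* was 0.85 and 0.987, and that of *CCND3* to *CCND1* was 0.7 and 0.847. *CDKN2C* had 14.03 and 17.5 FPKM, against 13.1 and 15.9 FPKM for *CDKN1A*. In HCC4006 the order of mean FPKM was *CCND1* (422 FPKM), *CDK4* (80.5), *CDKN1A* (80.3), *CCND3* (20.5), *CCNE1* (15.3), *CDKN1B* (13.7), *CDK6* (4.98), *CDKN2C* (4.24), *CDKN1C* (0.644) and *CCND2* (0.0104), with an overlap of *CDK4* and *CDKN1A* only.

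In the vehicle libraries *CDKN1A*, *CCNE1* and *CCND1* were higher in HCC4006, by ratios of mean FPKM of 5.55, 3.55 and 2.46. *CCND3*, *CDKN2C*, *CDK4*, *CDKN1B* and *CDK6* were higher in ABC1, by ratios of 6.54, 3.72, 2.32, 2.14 and 1.96. All 8 were called, 3 higher and 5 lower in HCC4006, where 36.8% of all genes tested were called higher and 30.2% lower. The log2 differences ran from 2.40 (standard error 0.11) for *CDKN1A* to -2.63 (standard error 0.21) for *CCND3*, and no call was lost when a library was left out. With 1 culture line on each side, the difference is one between these lines.

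The other genes of the G1 and restriction point machinery, a list of 26, shifted downwards in HCC4006. Of 24 tested there, 2 were called higher and 9 lower, where 8.45% of all genes tested were called higher and 10.7% lower. Log2 fold changes were above 0 for 6 and below 0 for 18, and their median was -0.37, beside -0.03 over all genes tested. In ABC1 0 of 26 were called by limma (6 had an unadjusted p under 0.05, as did 21.9% of all genes tested there), and the median was -0.07, beside -0.02 over all genes tested. Leaving out 1 of the HCC4006 libraries lowered the 11 calls to between 3 and 6, with 6 without vehicle replicate 0, 3 without DEM replicate 0 or vehicle replicate 1 and 4 without DEM replicate 1.

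*SKP2*, the F-box protein that marks p27 for degradation, fell in HCC4006 from 6.37 and 6.41 to 1.99 and 1.94 FPKM (log2 fold change -1.32, adjusted p = 0.00357 by limma). In ABC1 it had 78.3 and 78.9 FPKM with vehicle and 43.0 and 47.8 FPKM with DEM (log2 fold change -0.78, adjusted p = 0.0564 by limma). *CCNE2* fell in HCC4006 from 5.67 and 8.74 to 1.83 and 2.20 FPKM (log2 fold change -1.42, adjusted p = 0.0106 by limma). Its ABC1 levels were 10.4 and 10.1 FPKM with vehicle and 3.63 and 5.95 FPKM with DEM (log2 fold change -0.99, adjusted p = 0.0924 by limma). The share of *CCNE2* in the summed FPKM of both E-type cyclins was lower with DEM in each line, at 57.7% and 60.1% against 69.4% and 71.4% in ABC1 and at 12.0% and 13.9% against 26.3% and 37.3% in HCC4006.

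*CDK2*, the kinase partner of cyclin E, fell in HCC4006 from 30.2 and 35.8 to 18.8 and 16.0 FPKM (log2 fold change -0.89, adjusted p = 0.00879 by limma). *E2F1* also fell there, from 16.2 and 17.5 to 10.6 and 10.4 FPKM (log2 fold change -0.64, adjusted p = 0.0111 by limma). In ABC1 the log2 fold changes were -0.27 for *CDK2* and -0.01 for *E2F1*, and the differences between the lines were not called for *SKP2*, *CCNE2*, *CDK2* or *E2F1* (adjusted p from 0.133 to 0.616 by limma). *FBXO31*, an F-box protein that directs cyclin D1 to degradation, rose in HCC4006 from 13.7 and 14.1 to 25.3 and 21.6 FPKM (log2 fold change 0.71, adjusted p = 0.0109 by limma). *CDK7*, of the CDK-activating kinase, rose there by 0.40 on the log2 scale (adjusted p = 0.0344 by limma). In ABC1 the log2 fold changes were 0.22 for *FBXO31* and 0.385 for *CDK7*, and neither was called. The difference between the lines was 0.013 for *CDK7*. *RB1*, the retinoblastoma gene itself, was at 9.67 and 10.5 FPKM with vehicle and 9.50 and 10.0 FPKM with DEM in ABC1 and at 7.72 and 8.96 against 5.77 and 6.80 FPKM in HCC4006, and was not called.

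Of the other INK4 genes, *CDKN2A* and *CDKN2B* separated the lines, whereas *CDKN2D*, named after its values were seen, was not called between them. *CDKN2A*, whose products include p16, had 88.7 and 94.7 FPKM with vehicle and 70.8 and 104 FPKM with DEM in ABC1. It was listed at 0 in all 4 libraries of HCC4006. These FPKM are summed over the gene and are not those of p16 alone. *CDKN2B* (p15) had 18.1 and 13.98 FPKM with vehicle and 21.7 and 20.4 FPKM with DEM in ABC1, and was listed at 0 in all HCC4006 libraries but one, which had 0.00845 FPKM. *CDKN2D* (p19) had 6.27 and 5.79 FPKM with vehicle in ABC1 and 4.37 and 4.56 FPKM in HCC4006, a log2 difference of -0.36 (95% CI -0.73 to 0.00, adjusted p = 0.0731 by limma). None of the 3 was called with DEM in ABC1.

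Downstream of the G1 kinases, the S phase genes that E2F factors drive were lower with DEM. All 19 matched genes of a list of 20 were called lower in HCC4006, where 10.7% of all genes tested were. Their median log2 fold change was -0.94 (from -1.42 to -0.52), beside a median of -0.03 over all genes tested. In ABC1 all 19 log2 fold changes were below 0 as well (median -0.50), but 0 were called by limma and 8 had an unadjusted p under 0.05, beside a median of -0.02 and a share of 21.9% over all genes tested there. Without a minimum, or with the fit of all 8 libraries, 4 of the 19 were called in ABC1, and without a minimum the calls in HCC4006 dropped to 2. With a term for the replicate number, which the labels do not tie to a batch, 13 were called lower in ABC1. The difference between lines was called for 0 of the 19. *RRM2*, a subunit of ribonucleotide reductase, fell in HCC4006 from 106 and 97.3 to 37.7 and 37.9 FPKM (log2 fold change -1.40, adjusted p = 0.000707 by limma). *TYMS*, thymidylate synthase, fell there from 36.5 and 35.5 to 11.5 and 14.3 FPKM (log2 fold change -1.42, adjusted p = 0.00218 by limma). *PCNA*, the sliding clamp of DNA replication, fell there from 183 and 192 to 73.6 and 80.9 FPKM (log2 fold change -1.27, adjusted p = 0.000967 by limma). In ABC1 *PCNA* had 331 and 364 FPKM with vehicle and 207 and 259 FPKM with DEM (log2 fold change -0.58, adjusted p = 0.126 by limma). In bulk RNA, fewer cells in S phase and less of these transcripts per cell cannot be told apart.

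Of 14 genes of G2 and mitosis, 6 were called lower in HCC4006, where 10.7% of all genes tested were. The log2 fold changes of 13 of the 14 were below 0 there. In ABC1 7 were below 0 and 0 were called (1 had an unadjusted p under 0.05, against 21.9% of all genes tested there). The medians were -0.32 in HCC4006 and -0.03 in ABC1, beside -0.03 and -0.02 over all genes tested. *AURKB*, a mitotic kinase, fell in HCC4006 from 57.4 and 49.5 to 24.4 and 24.0 FPKM (log2 fold change -1.11, adjusted p = 0.00251 by limma) and had 52.8 and 54.1 FPKM with vehicle and 48.1 and 54.8 FPKM with DEM in ABC1. *TOP2A* and *UBE2C* fell in HCC4006 by 1.16 and 1.08 on the log2 scale. The difference between the lines was called for *AURKB* alone of the 14 (difference -1.05, adjusted p = 0.0384 by limma).

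Of 23 transcription factors known to act on D-type cyclin or CDK inhibitor genes, 22 were tested in each line. In HCC4006 9 were called higher and 1 lower, where 8.45% of all genes tested were called higher and 10.7% lower. In ABC1 1 was called higher and 1 lower, where 0.768% and 0.435% of all genes tested were. Log2 fold changes were above 0 for 18 in HCC4006 and 16 in ABC1. In ABC1 10 had an unadjusted p under 0.05 by limma, as did 21.9% of all genes tested there. The median log2 fold changes were 0.35 in HCC4006 and 0.34 in ABC1, beside -0.03 and -0.02 over all genes tested. *CEBPB* rose in both lines, from 20.4 and 20.9 to 40.5 and 37.6 FPKM in ABC1 (log2 fold change 0.89, adjusted p = 0.0436 by limma) and from 11.8 and 11.9 to 19.6 and 21.3 FPKM in HCC4006 (log2 fold change 0.74, adjusted p = 0.00719 by limma). *ATF3*, a stress-induced factor, rose in HCC4006 from 14.8 and 13.01 to 35.8 and 36.7 FPKM (log2 fold change 1.33, adjusted p = 0.00163 by limma) and had 4.34 and 3.83 FPKM with vehicle and 8.25 and 10.4 FPKM with DEM in ABC1. *MYC* rose in HCC4006 from 25.2 and 22.2 to 40.1 and 36.2 FPKM (log2 fold change 0.67, adjusted p = 0.0111 by limma). In ABC1 *MYC* had 32.7 and 27.7 FPKM with vehicle and 46.6 and 49.2 FPKM with DEM. *FOSL1* rose in HCC4006 by 0.999 on the log2 scale, whereas *JUNB* fell by 0.63. In ABC1 they moved the same way without a call, by 1.22 for *FOSL1*, at no more than 2.48 FPKM, and by -0.42 for *JUNB*. *JUN* fell in ABC1 from 19.7 and 17.8 to 5.83 and 6.61 FPKM (log2 fold change -1.45, adjusted p = 0.0226 by limma). In HCC4006 *JUN* was also lower with DEM but was not called (log2 fold change -0.34, adjusted p = 0.0535 by limma). The difference of *JUN* between the lines, one of size, was called (difference 1.11, adjusted p = 0.0371 by limma). Without a library, 0 or 1 of this list were called in ABC1, 0 without either vehicle library and 1 without either DEM library, and in HCC4006 between 5 (without vehicle replicate 1) and 9.

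**Figure D4:**
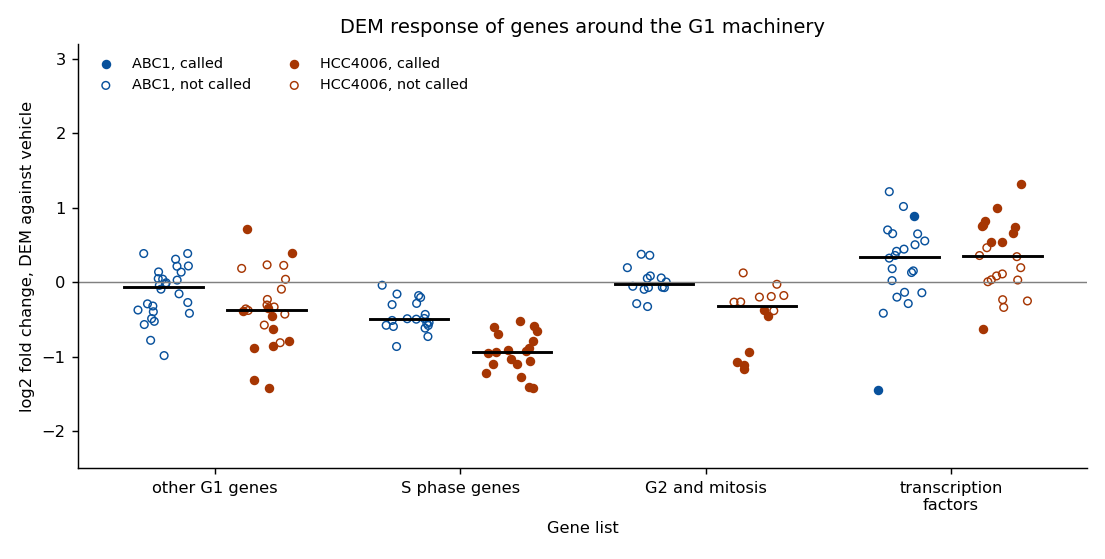
log2 fold change with DEM against vehicle for each tested gene of 4 lists around the G1 machinery, in ABC1 and HCC4006, with filled points for called genes and a line at each list's median. The S phase genes lie below 0 in both lines, with medians of -0.50 in ABC1 and -0.94 in HCC4006, where all 19 were called.

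The genes whose pattern was most like that of *CCND3* and *CDKN1A* were sought over the 8 libraries, after the mean of each line was subtracted from log2(FPKM + 1), among 11539 genes with at least 1 FPKM on average in both lines. For *CCND3* they were *JAG1*, *EMC8* and *COPS7A*, with Pearson's r of 0.995, 0.984 and 0.981. *JAG1*, which encodes a NOTCH ligand, had 14.1 and 15.6 FPKM with vehicle and 19.3 and 20.8 FPKM with DEM in ABC1, and 13.3 and 12.5 against 12.0 and 11.6 FPKM in HCC4006. It followed the order of *CCND3* over a much smaller range. For *CDKN1A* they were *TMEM87B*, *SPDYE3* and *C2CD3*, with r of 0.999, 0.995 and 0.993. *TMEM87B* had 4.66 and 5.18 FPKM with vehicle and 7.83 and 7.69 FPKM with DEM in ABC1 and between 38.0 and 39.8 FPKM in HCC4006. *SPDYE3* belongs to a family of near-identical copies, so its reads may be shared. Between *CCND3* and *CDKN1A* r was 0.930. The libraries of a group share their line and treatment, so these values describe likeness only.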

How the data were processed

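Poly(A) RNA of 8 cultures was sequenced as strand-specific paired-end libraries. The authors aligned the reads to hg19 and deposited an FPKM value per gene and library. The submitters' processing notes name bcl2fastq 2.15.0, cutadapt 1.15, STAR 2.5.3a, SAMtools, Cuffnorm, HTSeq, DESeq2 and R 3.2.0, whereas the paper's methods name TopHat and Cufflinks. Which of these made the FPKM values is not settled by the sources used here. The authors' deposited table of their own comparison holds fold changes and p-values, which were not used, and base means, a signal per gene that the authors made as the mean of scaled counts. The base means summed to 13786938 in ABC1 and 13957320 in HCC4006, which gives the depth only roughly. Counting errors are Poisson approximations from these base means, which pool vehicle and DEM libraries, and cover counting only.

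Symbols were found for 55534 of 57815 identifiers through GENCODE on GRCh37, and positions are those of that annotation. Promoters are those of RefSeq on GRCh38.p14, without the bases after the start. Groups followed the labels. With limma 3.58.1 (R 4.3.3) a linear model was fitted per gene to log2(FPKM + 1), letting the variance follow the mean. Genes that averaged under 1 FPKM were left out. Fits were made within each line for DEM against vehicle and over all 8 libraries for the difference of responses and for the vehicle levels. Calls are at a Benjamini-Hochberg adjusted p under 0.05 over all genes tested. With 2 libraries against 2, exact permutation of 1 gene gives no p below 0.333. The script was tested on simulated data. The members and the gene lists were chosen with earlier results of these data known. Genes named from a list were, per direction, up to 3 called genes with the largest log2 fold change and no overlap of DEM and vehicle libraries. *CDK2*, *RB1*, *E2F1*, *CCNE2*, *CDKN2A*, *CDKN2B* and *MYC* were also set to be named. A further gene and 1 gene list are not reported here. *UHRF1* and *PECAM1* had no matched identifier. Figures were drawn with matplotlib. Alternatives were another pseudocount, other minimums, 2 scalings, no trend, a replicate block, a fit of all 8 libraries and leaving out each library.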

Additional observations from a re-analysis of the deposited data

Results flagged for a closer look

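The differences of *CCND3* with DEM lay in opposite directions in the lines, with every DEM library above the vehicle libraries in ABC1 and below them in HCC4006. The difference of its log2 fold changes, HCC4006 minus ABC1, was -1.70 and did not pass the test, so it is given as an opposite direction only. For *CDKN1A* the difference was -1.19. It was called in the fit of all 8 libraries, but *CDKN1A* was selected on these responses. The call was lost in 7 of the 8 turns in which a library was left out. It was also lost with a pseudocount of 0.1, without a minimum and with the replicate block. Among the listed genes, in the test of the difference itself, *AURKB* differed by -1.05 and *JUN* by 1.11. Across the members and lists many such tests were made, and 0.636% of all genes tested passed.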

How the results depend on the processing

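Calls of members moved more than their values, which some alternatives could not move. With no minimum, a minimum of 5 FPKM, no trend, the replicate block or the fit of all 8 libraries, a log2 difference stays the same by construction. Leaving out a DEM library likewise cannot move a difference between the vehicle groups. Of 430 values of single members under all alternatives, 412 stayed within 1 standard error of the reported value, 18 did not, and 0 called values turned. The 412 include values that could not move, so nothing is read from this count. The 8 calls between the vehicle groups remained under every setting in which those genes were tested.

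In ABC1 the count of members called was 2 without a minimum, with a minimum of 5 FPKM, with the median of ratios and with quantile normalization (*CCND3* and *CDKN1A*), 3 with the fit of all 8 libraries (*CDK4* as well), 0 without the mean-variance trend and 0 when any library was left out. In HCC4006 it was 0 without the trend and 0 when any library was left out. The 1 call in HCC4006 without a minimum was *CCND2*, at values near 0, in place of *CDK4*. For the difference between lines it was 2 with the median of ratios and with quantile normalization, 0 with a pseudocount of 0.1 and without a minimum, and 0 to 1 with a library left out.

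Of the other G1 genes, those called in ABC1 were 2 without a minimum and with the fit of all 8 libraries and 1 with a minimum of 5 FPKM, the median of ratios or quantile normalization. In HCC4006 they were 1 without a minimum, 6 with a minimum of 5 FPKM (15 genes tested) or the fit of all 8 libraries, and 3 to 6 with a library left out. Of the S phase genes, 4 were called in ABC1 without a minimum and with the fit of all 8 libraries, and 2 in HCC4006 without a minimum. Of the G2 and mitosis genes, 0 were called in HCC4006 without a minimum. Of the transcription factors, 9 were called in ABC1 without a minimum, 4 with quantile normalization, 1 without the trend, 7 with the fit of all 8 libraries and 0 to 1 with a library left out. In HCC4006 they were 0 without a minimum and 5 to 9 with a library left out. The NRF2 targets called in ABC1 were 2 to 5 with a library left out, 2 without vehicle replicate 0 and 3 without vehicle replicate 1. Without a minimum 57815 identifiers were tested, most of them near 0, and leaving out a library lowers the degrees of freedom and assumes that the lone library of its group varies like the others. The cause of the other shifts was not tested.

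The labels share replicate numbers across groups but do not say that a number marks a shared batch. Same-numbered libraries deviated together with a correlation of 0.257 in ABC1 and 0.054 in HCC4006. With the replicate block 3 members were called in ABC1 (*CCND3*, *CDKN1A* and *CDK4*), 1 in HCC4006 (*CDK4*) and 1 for the difference (*CCND3*, in place of *CDKN1A*). Of the lists, the replicate block gave in ABC1 8 other G1 genes, 13 S phase genes, 2 G2 and mitosis genes and 10 transcription factors. Over all genes it called 1185 higher and 1163 lower in ABC1, against 97 and 55 without it.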
